A study of Mus musculus with 4 samples.

Results

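The genes examined here encode the contractile apparatus, calcium handling, natriuretic peptide, regulators and energy enzymes of heart muscle. The list holds 41 genes, which were looked up by symbol in a table of 21462 genes measured in sorted mouse lung smooth muscle cells (SMCs). Of these, 38 were in the table, and *Myl2*, *Nppb* and *Nkx2-5* were not analysed here. A mean of at least 10 normalized counts over the 4 libraries was required for testing, which 29 of the 38 genes met. *Hand2* met it at a mean of exactly 10, through its values in the mutants. *Csrp3*, *Myoz2*, *Trdn* and *Xirp1*, with control means below 10, also met it through the mutants. *Ckm*, with a mutant mean of 6, met it through the controls.

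Striated heart muscle contracts when myosin of the thick filament pulls on actin of the thin filament, and troponin on the thin filament opens the binding sites when calcium is released from the sarcoplasmic reticulum. In mice this tissue does not end at the heart: a sleeve of cardiomyocytes continues from the left atrium around the pulmonary veins and into the lung, and it carries the atrial forms of the myosin light chains together with atrial natriuretic peptide. SMCs use other actin and myosin genes, such as *Acta2* and *Myh11*, and have no sarcomeres.

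The 4 libraries came from C57BL/6 mice, 2 Tet3 mutant (labelled Mut) and 2 control (labelled WT), each from a separate animal by the study's methods. TET3 oxidizes 5-methylcytosine in DNA. By those methods the mutants carried floxed *Tet3*, a tamoxifen-inducible Cre driven by the α-SMA promoter (α-SMA-ERT2Cre2) and the ROSA26 tdTomato reporter, and the controls lacked the floxed allele but carried the Cre and/or the reporter. Tamoxifen was injected daily, starting in young adult mice of either sex, and tdTomato+ DAPI- cells were sorted from perfused, dissociated lungs after bead depletion of CD45+ and Ter-119+ cells. The reporter marks cells in which the α-SMA promoter had driven the Cre, so the sort leaves out cells without the reporter. The methods also pass the suspension through cell strainers and name no step directed at cardiomyocytes. Whether the pool held cardiomyocytes was not tested. The age at collection is not given in the sources used here. RNA content of a sorted pool was measured, so fewer cells of a kind and less RNA per cell cannot be told apart.

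Control 2 stood apart from the other libraries. The X-linked transcript *Xist* was at 2 normalized counts in it and at 5214 to 6781 elsewhere, and the Y-linked gene *Ddx3y* was at 774 in it and listed at 0 elsewhere. The labels give no sex. By these transcripts control 2 was male, and control 1 and both mutants were female. Sex was thus not balanced between the groups, and its part in the differences below was not tested. The targeted gene *Tet3* had 1847 and 1926 normalized counts in the controls, against 1534 and 1444 in the mutants. All 10 smooth muscle markers were detected in every library, with sums of 10762 to 12895 normalized counts. Markers of other lung cells were detected as well, with sums of 14788 to 16127 for 10 endothelial genes, 17257 to 20804 for 8 fibroblast genes and 10486 to 22564 for 8 genes of alveolar type 2 cells, the surfactant-producing epithelium. Library totals ran from 6805272 to 7164573 normalized counts.

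Promoters were printed for 6 of the genes on which the results turn: 3 that were higher in both mutants, 2 that were lower in both mutants, and *Myh6*, which was lowest in control 2. They are 250 bases before and 50 bases after the RefSeq start on GRCm38.p6, read 5′ to 3′ on the gene's strand. Capitals mark matches on either strand to the GATA motif (AGATAA, or the same with T at its start, G at its end, or both), the CArG box bound by serum response factor, and the MEF2 motif.
Hand2, chr8:57320733-57321032, plus strand: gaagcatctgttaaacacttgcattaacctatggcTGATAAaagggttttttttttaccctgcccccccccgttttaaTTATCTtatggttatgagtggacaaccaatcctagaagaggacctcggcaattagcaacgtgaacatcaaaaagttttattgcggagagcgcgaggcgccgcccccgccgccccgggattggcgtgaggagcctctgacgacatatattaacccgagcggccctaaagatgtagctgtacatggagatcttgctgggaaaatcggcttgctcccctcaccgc
Nppa, chr4:148000472-148000771, plus strand: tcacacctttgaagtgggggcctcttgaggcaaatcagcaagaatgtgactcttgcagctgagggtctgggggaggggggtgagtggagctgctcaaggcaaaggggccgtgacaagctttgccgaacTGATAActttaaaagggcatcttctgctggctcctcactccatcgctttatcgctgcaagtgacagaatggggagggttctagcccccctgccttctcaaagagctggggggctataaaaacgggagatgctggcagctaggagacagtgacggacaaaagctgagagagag
Actc1, chr2:114052826-114053125, minus strand: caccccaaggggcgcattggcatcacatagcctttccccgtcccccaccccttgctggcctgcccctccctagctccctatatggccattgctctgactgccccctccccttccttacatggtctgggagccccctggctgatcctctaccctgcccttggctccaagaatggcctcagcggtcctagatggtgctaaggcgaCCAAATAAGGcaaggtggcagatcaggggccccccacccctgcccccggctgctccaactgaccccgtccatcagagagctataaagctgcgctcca
Myh6, chr14:54966558-54966857, minus strand: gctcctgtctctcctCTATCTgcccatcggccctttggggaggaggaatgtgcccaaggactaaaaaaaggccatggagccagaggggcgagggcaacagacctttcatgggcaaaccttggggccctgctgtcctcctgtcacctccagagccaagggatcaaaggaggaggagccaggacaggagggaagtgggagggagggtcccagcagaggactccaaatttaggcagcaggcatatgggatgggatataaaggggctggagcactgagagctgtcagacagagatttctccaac
Myh7, chr14:54994577-54994876, minus strand: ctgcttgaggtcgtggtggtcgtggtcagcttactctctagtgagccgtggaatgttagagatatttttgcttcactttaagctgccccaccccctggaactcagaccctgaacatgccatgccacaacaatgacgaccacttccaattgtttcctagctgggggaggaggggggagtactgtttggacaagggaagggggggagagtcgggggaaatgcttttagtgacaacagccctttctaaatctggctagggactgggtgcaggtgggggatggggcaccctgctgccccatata
Ttn, chr2:76982498-76982797, minus strand: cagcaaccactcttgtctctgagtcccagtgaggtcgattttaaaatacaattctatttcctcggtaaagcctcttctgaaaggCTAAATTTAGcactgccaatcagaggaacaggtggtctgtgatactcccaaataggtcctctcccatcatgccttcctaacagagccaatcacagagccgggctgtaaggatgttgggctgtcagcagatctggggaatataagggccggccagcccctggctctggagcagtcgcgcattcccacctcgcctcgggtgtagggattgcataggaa
The *Actc1* and *Myh6* starts in RefSeq lie 673 and 320 bases inside the start that the deposited table gives, and the other starts are the same in both. Of the 41 genes, 33 matched a promoter entry by symbol, with 39 promoters between them, and *Gata4* was among those without one. A GATA match was present in 18 of the 39 promoters (46.2%), against 29.8% of all 32851 promoters of that length. A CArG box was present in 7 (17.9%), against 1.63%, and a MEF2 motif in 7 (17.9%), against 3.19%. The T-box motif GGTGTGA was present in 6 (15.4%, against 3.98%), the NKX motif TNAAGTG in 3 (7.69%, against 11.5%) and the E-box CANNTG in 35 (89.7%, against 72.3%), all searched on both strands. *Nppa* held a GATA, a T-box and an NKX match, and *Myh7* held an NKX match and none for GATA, CArG or MEF2. These are letter matches in one window and say nothing of binding.

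Transcripts of heart muscle genes were present in all 4 libraries, though not of every gene. Their levels per length were below those of the corresponding smooth muscle actin and myosin but not below those of every smooth muscle marker. The sum over the 10 thick and thin filament genes in the table was 1034 and 1353 normalized counts in controls 1 and 2 and 1016 and 1109 in mutants 1 and 2, between 0.0147% and 0.0189% of each library. In control 2, *Myh7* at 1004 and *Actc1* at 197 made up most of that sum. *Csrp3* and *Myoz2* were at 1 there, and *Nppa* was listed at 0 in both controls. Per kilobase of exon, the smooth muscle myosin *Myh11* was 8.23 to 96.9 times as high as the cardiac α-myosin *Myh6* and 2.6 to 13 times as high as the β-myosin *Myh7*, depending on the library. Calponin, *Cnn1*, a marker of contractile SMCs, had group means of 30.5 in controls and 59.2 in mutants per kilobase, next to 85.6 and 39.1 for *Myh7*. Cardiac actin *Actc1* stood at 0.297 to 0.453 of *Acta2* on the same scale, although actin genes are near-identical in their coding sequence and reads that map to several places had been discarded, which leaves such levels uncertain. The highest levels per kilobase among the genes were those of *Atp2a2* (mean 329 normalized counts per kilobase), *Gja5* (158) and *Actc1* (144.8). *Atp2a2* and *Gja5* are also used by non-cardiac cells of the lung, and *Atp2a2* was 0.989 to 1.2 times *Atp2a3* per kilobase.

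No gene of the list passed the test for a difference between mutants and controls. Fold changes below are mutant over control on log2(normalized count + 1), which understates changes of low genes, and were tested with limma across all 16659 genes with a sufficient mean. After Benjamini-Hochberg adjustment, 0 of the 29 tested heart genes and 0 of all genes tested (0%) had an adjusted p under 0.05 in limma, and the smallest adjusted p among the heart genes was 0.681. At an unadjusted p under 0.05, 4 were higher in mutants (*Hand2*, *Actc1*, *Gata4* and *Ldb3*), where 3.83% of all genes tested were, and 1 was lower (*Ttn*), where 2.85% of all genes tested were. *Hand2* had entered the test only through its mutant values, so its p is conditioned on the difference and is not counted as support. Across all genes 1112 reached that p, 57.4% of them higher in mutants; with equal library totals 69.2% were higher, and the same 4 and 1 heart genes remained.

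Counted over all 38 genes, tested or not, 10 had both mutants above both controls, where 18.1% of all genes in the table had this order, and 5 had both mutants below, where 18.3% had. The 10 were *Myl4*, *Myl7*, *Actc1*, *Ldb3*, *Fhl2*, *Ankrd1*, *Casq2*, *Nppa*, *Gata4* and *Hand2*, and the 5 were *Myh7*, *Myl3*, *Ttn*, *Ckm* and *Cox6a2*. In the other 23 the groups overlapped. The median log2 difference over the 38 was 0.44, in a range of -1.79 to 4.06, against a median of -0.0076 over all genes in the table. Without control 2 the median over the 38 was 0.22.

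**Figure D1:**
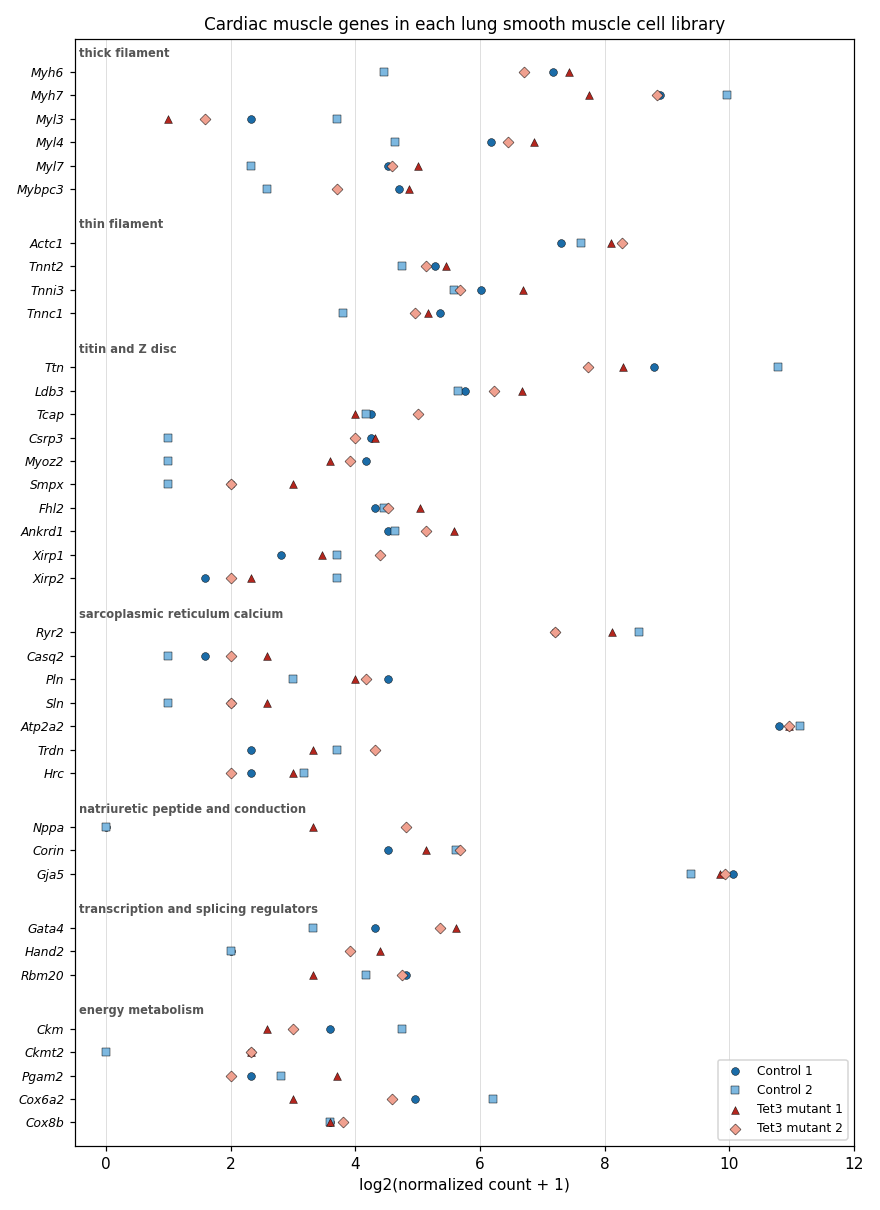
Level of the 38 heart muscle genes in each library, grouped by role, as log2(normalized count + 1) on the horizontal axis; coinciding symbols hide each other. Circles and light squares are controls 1 and 2, triangles and diamonds are Tet3 mutants 1 and 2. Control 2 lies far to the left for *Myh6*, *Myl7*, *Csrp3* and *Myoz2* and far to the right for *Ttn* and *Cox6a2*, while for *Hand2* and *Gata4* both mutants lie to the right of both controls.

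**Figure D2:**
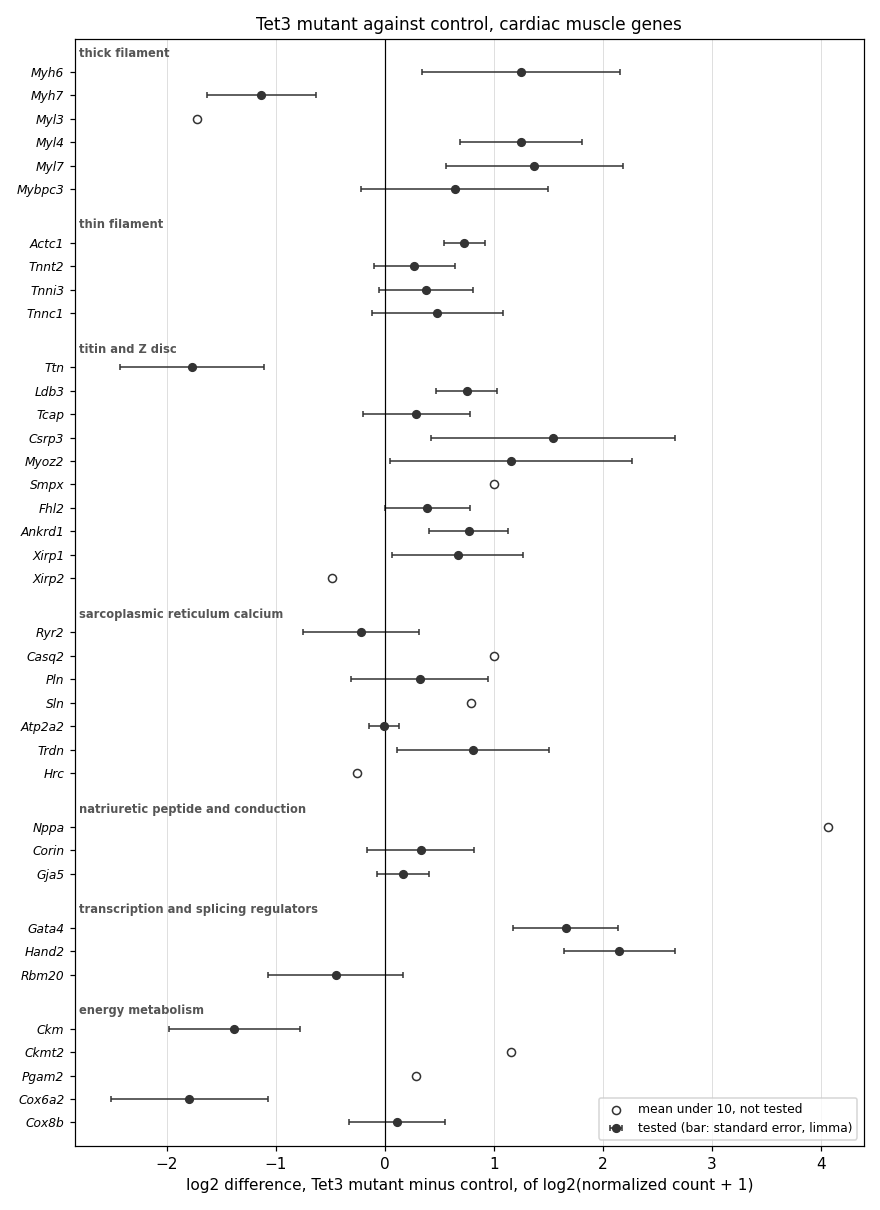
Difference between Tet3 mutants and controls for each of the 38 genes, as the difference of group means of log2(normalized count + 1). Filled points are tested genes with the moderated standard error from limma as bars, and open points are genes with a mean under 10, which were not tested. *Nppa* lies farthest to the right at 4.06 and *Cox6a2* farthest to the left at -1.79.

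The cardiac transcription factor genes *Hand2* and *Gata4* had the largest log2 fold changes among the 29 tested genes, counting those with higher mutant means. *Hand2*, a basic helix-loop-helix factor of the developing heart (chr8:57320983-57324633, GRCm38), had 3 normalized counts in each control and 20 and 14 in mutants 1 and 2. *Gata4*, a zinc finger factor that binds GATA sites in cardiac genes (chr14:63198922-63271692), had 19 and 9 in the controls, against 48 and 40 in the mutants. The groups did not overlap for either gene.

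The log2 fold change of *Hand2* was 2.15, given as a description since its mutant values carried it past the minimum mean. A pseudocount of 8 in place of 1 brought its log2 fold change to 1.17. For *Gata4* the group means were 14 ± 7.07 and 44 ± 5.66 (SD, n = 2 each). Its log2 fold change was 1.66 with a 95% interval of 0.44 to 2.89, at a limma p of 0.0171 (adjusted p of 0.681). Without control 2, the log2 fold changes were 2.15 for *Hand2* and 1.16 for *Gata4*. *Hand2* shares 461 exon bases, 19.6% of its exon length, with the antisense gene *Hand2os1*, which was at 2 and 0 in the controls, against 27 and 9 in the mutants. Whether strand was used in counting is not given in the sources used here. Reads overlapping several genes were left out, so those in the shared bases were either assigned by strand or missing from both genes. *Rbm20*, the splicing factor that acts on titin transcripts, had 27 and 17 in the controls, against 9 and 26 in the mutants, and its direction turned from -0.45 to 0.27 when mutant 1 was left out.

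The natriuretic peptide gene *Nppa* (chr4:148000722-148002079), which encodes the hormone stored by atrial cardiomyocytes, was listed at 0 in both controls and at 9 and 27 normalized counts in mutants 1 and 2. Against a floor of 3 counts, the level below which counting error does not separate a value from 0, the mutant mean was at least 6-fold higher. With a mean of 9 the gene was not tested. The antisense gene *Gm13054* covers 61.5% of its exon length and had lower values in both mutants, at 6 in each control and 1 and 3 in mutants. Here too, counting without strand would have left out the reads in the shared bases. *Corin*, the membrane protease that activates the peptide, overlapped between groups, at 22 and 48 in the controls, against 34 and 50 in the mutants. *Gja5*, the gap junction protein connexin 40 of atrial and arterial endothelial cells, had 1071 and 666 in the controls, against 923 and 972 in the mutants. Both reversed direction when 1 library was left out, *Corin* to -0.21 without control 1 and *Gja5* to -0.18 without control 2.

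**Figure D3:**
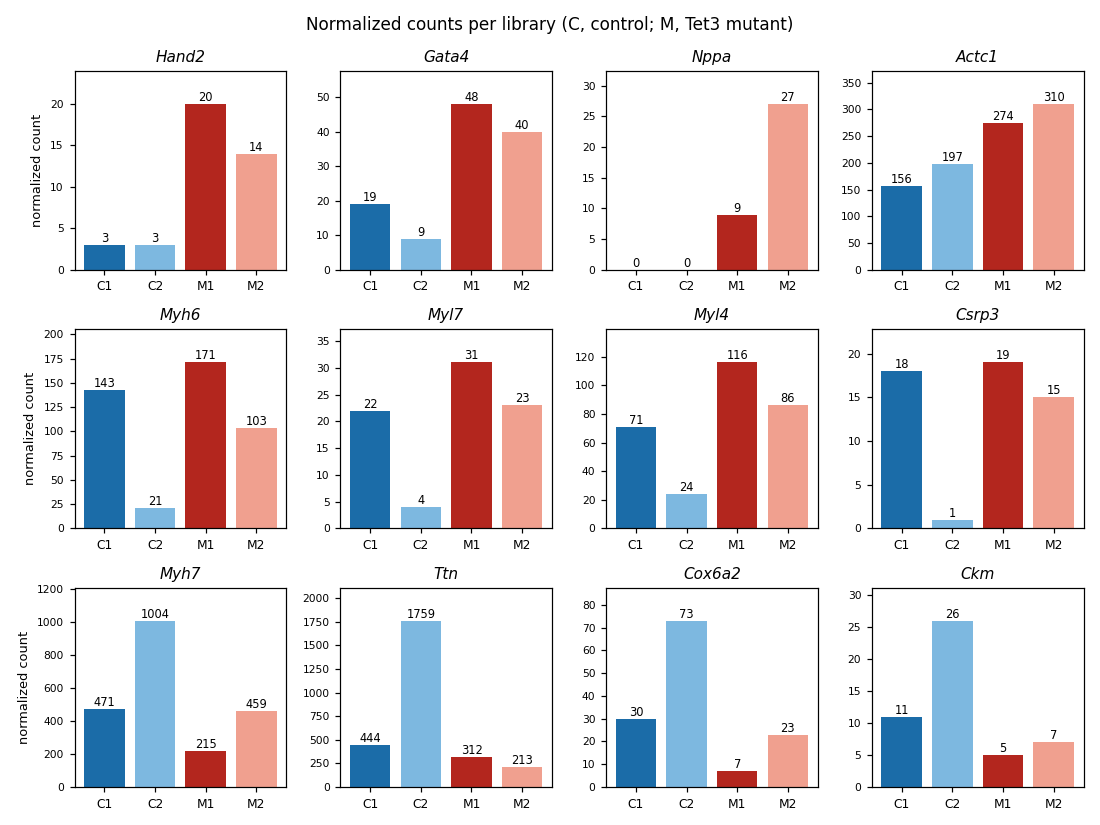
Normalized counts of 12 heart muscle genes in each library, 1 bar per library, with the value above it (C1 and C2, controls; M1 and M2, Tet3 mutants); each panel has its own linear axis from 0. In the top row both mutants exceed both controls, in the middle row control 2 is the lowest library, and in the bottom row control 2 is the highest and both mutants lie below both controls.

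Among thin filament genes, cardiac α-actin *Actc1* (chr2:114047282-114053548) had 156 and 197 normalized counts in the controls, against 274 and 310 in the mutants. Both mutants lay above both controls, with means of 176.5 ± 29 and 292 ± 25.5 (SD, n = 2 each). The log2 fold change was 0.73 with a 95% interval of 0.25 to 1.21, at a limma p of 0.0113 (adjusted p of 0.681), and it lay between 0.56 and 0.90 with any 1 library left out. The 3 troponin genes of the cardiac thin filament did not separate the groups. Troponin T, *Tnnt2*, was at 38 and 26 in the controls, against 43 and 34 in the mutants. Troponin I, *Tnni3*, was at 64 and 47 against 102 and 50, and troponin C, *Tnnc1*, at 40 and 13 against 35 and 30. Their log2 fold changes of 0.27, 0.38 and 0.48 had limma standard errors of 0.37, 0.43 and 0.60, and those of *Tnni3* and *Tnnc1* changed sign, to -0.13 without mutant 1 and to -0.30 without control 2.

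Thick filament genes split in 2 directions. The atrial myosin light chains were higher in both mutants. *Myl4*, the atrial essential light chain, had 71 and 24 normalized counts in the controls, against 116 and 86 in the mutants. *Myl7*, the atrial regulatory light chain, had 22 and 4 against 31 and 23. Control 2 was the lowest library for both, 3.79-fold below the mean of the other 3 for *Myl4* and 6.33-fold below for *Myl7*. Their log2 fold changes of 1.25 and 1.37 had limma p of 0.0735 and 0.149, and they were 0.49 and 0.27 when control 2 was left out.

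The 2 cardiac myosin heavy chain genes lie side by side on chromosome 14 and are the classical pair of adult and fetal isoforms of the mouse ventricle. *Myh6* (chr14:54941921-54966927), the adult form, had 143 and 21 in the controls, against 171 and 103 in the mutants, so that the groups overlapped. *Myh7* (chr14:54970684-54994626), the β form of the fetal heart and of slow skeletal fibres, had 471 and 1004 in the controls, against 215 and 459 in the mutants, with both mutants below both controls. Per kilobase, *Myh7* was 2.57 and 37.3 times *Myh6* in controls 1 and 2 and 0.982 and 3.48 times in mutants 1 and 2. The ratio thus varied more between the 2 controls than between control 1 and either mutant.

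For log2 fold changes, ± gives the limma standard error here and below. The log2 fold change of *Myh6* was 1.25 ± 0.91 (limma p of 0.226), and it became -0.11 without control 2. That of *Myh7* was -1.13 ± 0.50 (limma p of 0.0717) and -0.58 without control 2. These genes are close paralogs whose shared reads had been excluded, and each level is uncertain by that amount. *Myl3*, the ventricular and slow muscle light chain, was low, at 4 and 12 in the controls, against 1 and 2 in the mutants, in the same library order as *Myh7*. *Mybpc3*, cardiac myosin-binding protein C, had the library order of *Myh6*, at 25 and 5 against 28 and 12.

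*Myh7* made up most of the filament sum in control 2, and the summed level of thick and thin filament genes took another library order without it. The sum over all 10 differed by -0.17 on the log2 scale between mutants and controls, and by 0.039 without control 2. Without *Myh7*, the remaining 9 genes summed to 563 and 349 in the controls, against 801 and 650 in the mutants, with both mutants above both controls. *Myh7* was left out after its values were seen, and leaving out a gene that was lower in both mutants favours this order. *Actc1* was the largest remaining part, at 156 and 197 in the controls, against 274 and 310 in the mutants. Without *Actc1* as well, mutant 2 lies below control 1, so the groups overlap.

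Titin, *Ttn* (chr2:76703980-76982547), the spring that spans the sarcomere from Z disc to M band, was lower in mutants, with 444 and 1759 normalized counts in the controls, against 312 and 213 in the mutants. Control 2 was 5.45-fold above the mean of the other 3 libraries, and both mutants lay below both controls. The log2 fold change was -1.77 ± 0.66 with a 95% interval of -3.45 to -0.10, at a limma p of 0.0418 (adjusted p of 0.681), and -0.78 without control 2, where it no longer had an unadjusted p under 0.05. *Ldb3*, the PDZ-LIM protein of the Z disc, had 53 and 49 in the controls, against 101 and 74 in the mutants, a log2 fold change of 0.75 (limma p of 0.045, adjusted p of 0.681). *Ankrd1*, a stretch-responsive ankyrin repeat protein, had 22 and 24 against 47 and 34, a log2 fold change of 0.77 (limma p of 0.0821). For these 2 genes the controls were close to each other and the mutants lay above them, and the values without control 2 were 0.70 and 0.83.

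*Csrp3*, the muscle LIM protein, and *Myoz2*, calsarcin 1, were near 0 in control 2. *Csrp3* had 18 and 1 normalized counts in the controls, against 19 and 15 in the mutants, and *Myoz2* had 17 and 1 against 11 and 14. Their log2 fold changes of 1.54 and 1.16 had limma standard errors of 1.12 and 1.11 and turned to -0.087 and -0.42 without control 2. *Fhl2*, a LIM domain protein of the Z disc and nucleus, was at 19 and 21 against 32 and 22, with both mutants above both controls by as little as 1 count. Telethonin, *Tcap*, was at 18 and 17 against 15 and 31. The Xin repeat genes of the intercalated disc, *Xirp1* (6 and 12 against 10 and 20) and *Xirp2* (2 and 12 against 4 and 3), and the small protein gene *Smpx* (3 and 1 against 7 and 3) had overlapping groups.

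Calcium handling genes of the sarcoplasmic reticulum showed no common direction. The calcium pump SERCA2, *Atp2a2*, was the most abundant gene of the list and close between libraries, at 1786 and 2242 normalized counts in the controls, against 1990 and 1995 in the mutants. Its difference on the log2 scale was -0.0062, with a 95% interval of -0.36 to 0.35. The ryanodine receptor *Ryr2*, the calcium release channel, had 146 and 373 in the controls, against 276 and 146 in the mutants, and its log2 fold change of -0.22 became 0.46 without control 2.

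The remaining members of this group were low. Phospholamban, *Pln*, the inhibitor of the pump, had 22 and 7 in the controls, against 15 and 17 in the mutants. The antisense gene *Gm47644*, which was at 68 to 102, shares 59.6% of its exon length. Reads in those bases would be missing from *Pln* if strand was not used in counting. Sarcolipin, *Sln*, the atrial pump inhibitor, was at 3 and 1 against 5 and 3. Calsequestrin 2, *Casq2*, which stores calcium, was at 2 and 1 against 5 and 3, values at or near the floor of 3 counts although the groups did not overlap. Triadin, *Trdn*, was at 4 and 12 against 9 and 19, and the histidine-rich calcium-binding protein, *Hrc*, at 4 and 8 against 7 and 3.

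Muscle forms of energy enzymes were at low levels, and the 2 that separated the groups were lower in mutants. *Cox6a2*, the heart and muscle form of cytochrome c oxidase subunit 6A, had 30 and 73 normalized counts in the controls, against 7 and 23 in the mutants. *Ckm*, muscle creatine kinase, had 11 and 26 against 5 and 7. Control 2 was the highest library for both, 3.65-fold and 3.39-fold above the mean of the other 3. The log2 fold changes were -1.79 ± 0.72 (limma p of 0.0556) and -1.38 ± 0.60 (limma p of 0.0682), and -1.16 and -0.79 without control 2. *Ckm*, with means of 18.5 in controls and 6 in mutants, had entered the test only through its control values. Its p is thus conditioned on the difference and is not counted as support.

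The broadly expressed relatives of these enzymes were ordered differently. Per kilobase, *Cox6a2* was 0.279 and 0.506 of *Cox6a1* in controls and 0.0723 and 0.157 in mutants, and *Ckm* was 0.0198 and 0.0457 of *Ckb* against 0.00707 and 0.0105. *Cox6a1* itself was at 111 and 149 normalized counts in the controls, against 100 and 151 in the mutants, and *Ckb* at 552 and 566 against 703 and 663. *Cox8b*, the heart form of subunit 8, was even across libraries, at 11, 11, 11 and 13. *Pgam2*, muscle phosphoglycerate mutase, had 4 and 6 against 12 and 3, and *Ckmt2*, the sarcomeric mitochondrial creatine kinase, was at 4 in every library but control 2, where it was listed at 0.

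Control 2 held the lowest value in 17 of the 38 genes (44.7%) and the highest in 9 (23.7%), while it held the lowest in 30.4% and the highest in 31.3% of all genes in the table. Genes lowest in control 2 included *Myh6* (6.62-fold below the mean of the other 3), *Myl7*, *Mybpc3* (4.33-fold), *Tnnc1* (2.69-fold), *Csrp3*, *Myoz2*, *Pln* and *Gata4*. Genes highest in control 2 included *Ttn*, *Myl3*, *Cox6a2*, *Ckm*, *Myh7* (2.63-fold above) and *Ryr2* (1.97-fold). *Acta1*, skeletal α-actin, chosen after its values were seen, was also highest there, at 88 normalized counts against 1, 3 and 1 in the other libraries. Of the 17 adult skeletal muscle genes in the table, 7 were highest in control 2 and 3 were lowest there.

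With each library left out in turn, 16 of the 29 tested genes did not reverse direction and 13 did. *Myh6*, *Mybpc3*, *Tnnc1*, *Csrp3*, *Myoz2*, *Pln* and *Gja5* became lower in mutants without control 2, *Mybpc3* at -0.42 and *Pln* at -0.44. In each of these fits 1 group holds a single library, which is assumed to vary like the other group. Counts at an unadjusted p are therefore not given for these fits.

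**Figure D4:**
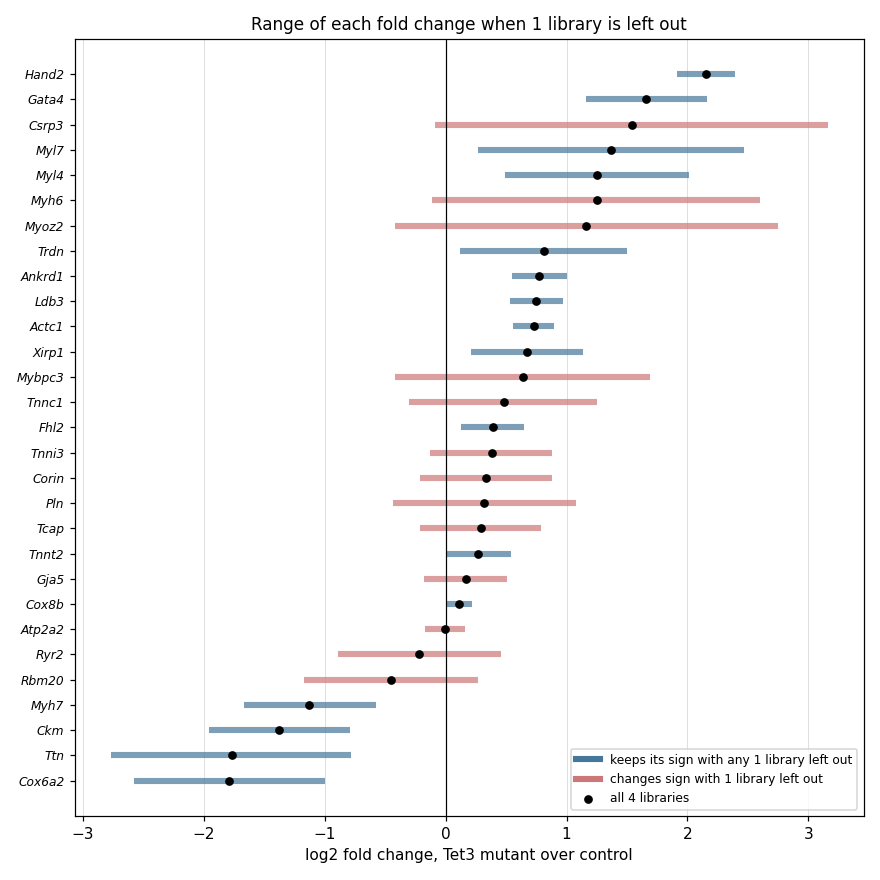
Range of the log2 fold change of each of the 29 tested genes over the 4 fits that leave out 1 library each, with the value from all 4 libraries as a point. Bars for 16 genes do not cross 0, and those for 13 do. The bar of *Hand2* runs from 1.91 to 2.39 and that of *Csrp3* from -0.087 to 3.16.

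Markers of other cell types moved with the libraries. Of the 8 alveolar type 2 markers, 7 were lower in both mutants, where 18.3% of all genes in the table were. Their sums were 15029 and 22564 in the controls, against 10486 and 13488 in the mutants, with control 2 highest. *Ckm*, *Cox6a2*, *Myh7* and *Myl3* had exactly that library order, which is 10.5% of the 38 genes and 6.69% of all genes in the table. The list for Schwann cells and autonomic neurons, with 2 genes in the table, had the same order. Its sums were 56 and 111 in the controls, against 43 and 50 in the mutants. T cell markers were at 538 and 132 in the controls, against 592 and 581 in the mutants. No marker in the table of the cell types named here was at 0 in any library. The order of the T cell sum was also that of the pericyte sum, the endothelial sum and the sum for endocardium and large vein endothelium. *Myl4*, *Myl7*, *Ldb3*, *Gata4* and *Casq2* had it too (13.2% of the 38, against 5.04% of all genes). *Myh6*, *Mybpc3*, *Tnnt2*, *Tnni3* and *Csrp3* had the order of the fibroblast sum (13.2%, against 3.98%). The smooth muscle and ciliated cell sums shared an order that 2 of the 38 genes had (5.26%, against 3.01%). The mesothelial order was found in 1 (2.63%, against 2.07%) and the macrophage order in 0 (against 5.5%).

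Pericyte and ciliated cell markers were higher in both mutants in all 6 genes of each list, with sums of 3002 to 3468 and 1906 to 2062 in controls and of 4201 to 4465 and 2614 to 3547 in mutants. Smooth muscle markers were higher in both mutants in 6 of 10 genes. Of all genes in the table, 18.1% had both mutants above both controls. Macrophage markers summed to 5964 and 4881 against 6248 and 7409, and mesothelial markers to 592 and 442 against 403 and 565. The 7 markers listed for endocardium and large vein endothelium, the cells that line the myocardial sleeve and its veins, summed to 12206 and 11046 against 13048 and 12583. The largest term in every library was *Vwf*, at 3429 to 4465, which is also among the 10 endothelial markers, and *Ackr1* was at 2 to 11. The sum is therefore not specific to those cells. The part of any of these cells in the values of the heart genes was not tested.

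**Figure D5:**
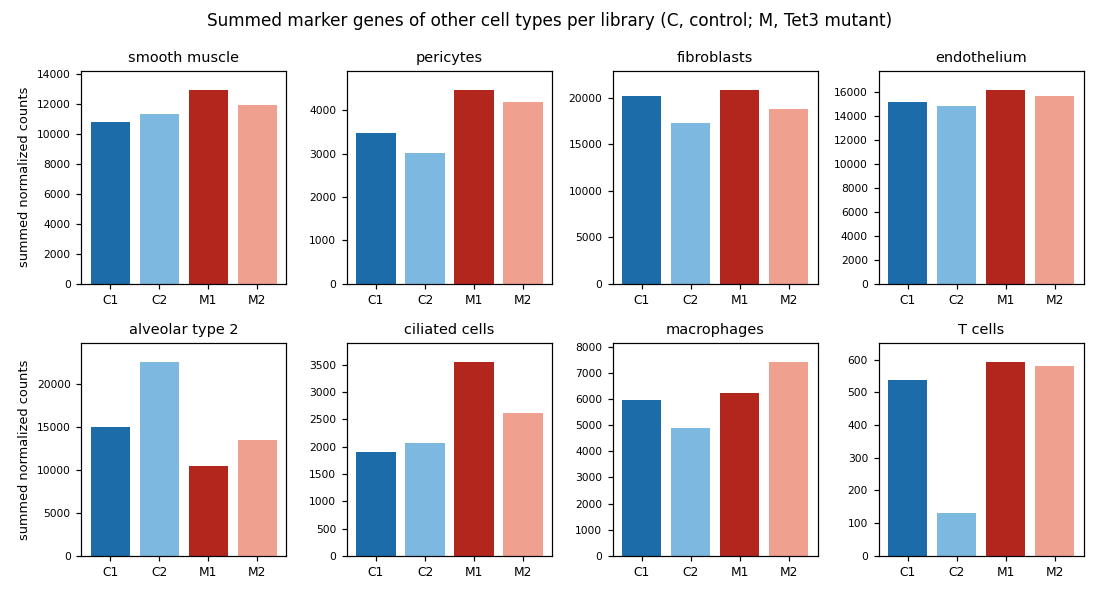
Summed normalized counts of marker genes of 8 cell types in each library (C1 and C2, controls; M1 and M2, Tet3 mutants), on linear axes from 0. Control 2 is the highest library for alveolar type 2 cells at 22564 and the lowest for T cells at 132.

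Further genes of heart muscle and its neighbours were taken from lists written by function, and none had a limma adjusted p below 0.681. Of 32 other contractile and membrane genes in the table, 28 were tested, and at an unadjusted limma p under 0.05 there was 1 higher and there were 3 lower. Of all genes tested, 3.83% were higher and 2.85% were lower at that p. The higher one was *Nrap*, a nebulin-related protein of the intercalated disc, at 45 and 21 normalized counts in the controls, against 86 and 68 in the mutants. The lower ones were *Cmya5* (235 and 274 against 159 and 165), the M band gene *Myom2* (134 and 47 against 24 and 8) and sarcalumenin, *Srl* (76 and 73 against 45 and 40). The median log2 difference over the 32 genes was 0.03.

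Of 13 other cardiac transcription factors, 2 were higher and 1 was lower at that p, where 3.83% and 2.85% of all genes tested were. *Tbx20*, a T-box factor of the heart, was at 21 and 11 in the controls, against 242 and 131 in the mutants, the same library order as *Gata4*. Myocardin, *Myocd*, the coactivator of serum response factor, was at 67 and 147 against 191 and 218, and *Srf* itself at 612 and 573 against 435 and 439. *Tbx5* was nearly even, at 937 and 825 against 882 and 936. The median over the 13 was 0.047.

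Of 9 sinoatrial and pacemaker genes, 7 were tested and 1 was higher, the T-type calcium channel *Cacna1g*, at 77 and 84 in the controls, against 243 and 141 in the mutants. The groups did not overlap in 6 of the 9, 5 of them higher in mutants. Of all genes in the table, 18.1% had both mutants above both controls and 18.3% had both below. At an unadjusted limma p under 0.05, 3.83% of all genes tested were higher and 2.85% were lower. *Hcn4*, the pacemaker channel, was low at 7 and 9 against 8 and 6. Of 17 adult skeletal muscle genes, 8 were tested and 0 had an unadjusted limma p under 0.05, with a median log2 difference of -0.37 over the 17. Of 25 broadly expressed relatives of the heart genes, 5 were higher and 0 lower, among them *Myl9* (341 and 443 against 525 and 555) and *Pdlim7* (472 and 418 against 605 and 572), with a median of -0.036.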

How the data were processed

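RNA of sorted lung SMCs was depleted of ribosomal RNA and made into stranded total RNA libraries, which the authors sequenced in single-end mode. Per the labels and methods, trimming used Trimmomatic 0.36, alignment to GRCm38 (mm10) used STAR 2.6.0c, and reads were counted over exons with featureCounts (Subread 1.6.0), leaving out reads that mapped to several places or genes. The deposited values are a score: counts that the authors scaled between samples with DESeq2 and rounded to whole numbers. Raw counts were not recovered, so no count model was run.

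Genes were grouped by symbol, and 99.8% of identifiers matched GENCODE M21 for exon lengths. Values were compared as log2(value + 1) with limma 3.58.1 in R 4.3.3 (lmFit, eBayes with trend), for genes with a mean of at least 10, adjusted by Benjamini-Hochberg over all 16659 genes at a threshold of 0.05. The script was tested on simulated data. An exact permutation test of 2 against 2 cannot go below 0.333. P-values rest on the spread between these animals, which limma moderates toward a trend fitted over all genes tested. Between the controls that spread also holds their difference in sex by transcripts. All listed heart genes are reported; in the other lists, the tested genes with the smallest p could be named, at most 5 a list. *Hcn4*, *Tbx5* and *Acta1* were named after their values were seen. The genes and lists were chosen with earlier results of these data known. Alternatives were pseudocounts of 0.5 and 8, minimum means of 1 and 50, TMM factors, equal totals, no trend, a replicate block and each library left out. Replicate numbers are shared between groups, but same-numbered libraries deviated together at a correlation of 0.134 over only 2 pairs, so the numbers were not taken to pair animals. Intervals and the floor of 3 counts cover counting error or the fit only.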

Additional observations from a re-analysis of the deposited data

How the results depend on the processing

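The 0 heart genes with a limma adjusted p under 0.05 were 0 under every alternative run, and the 0 genes called in the whole table became 1 without the mean-variance trend. The 5 heart genes at an unadjusted p under 0.05 (6.68% of all genes) became 2 at a minimum mean of 50, where 10 were tested (6.85% of all genes), and ranged from 1 to 12 with 1 library left out, while the share of all genes ranged from 1.64% to 20.2%. Heart genes with every mutant above every control ranged from 15 to 22, and those with every mutant below from 7 to 10, with 1 library left out. Fewer values make separation easier, and the share of all genes with these orders is not given here for those fits. The 18.1% and 18.3% of all genes come from 4 libraries, so whether these counts exceed the whole table was not tested. The median log2 difference over the 38 genes lay between 0.22 and 0.61 with 1 library left out and between 0.30 and 0.48 under the other settings, and the difference in the filament sum between -0.35 and 0.039 with 1 library left out. Of the 29 tested genes, 28 did not change direction under any processing setting, and *Atp2a2* reversed to 0.042 with equal library totals. A pseudocount of 8 brought *Csrp3* to 0.70, *Myoz2* to 0.45 and *Ckm* to -0.86.

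With the replicate number as a block, 7 heart genes had an unadjusted limma p under 0.05, 4 higher and 3 lower. *Hand2*, whose p is not counted as support, was again among the higher ones. Of all genes, 9.83% had such a p (42.8% of these higher, against 57.4% without the block). The smallest limma adjusted p among the heart genes was 0.153. The pairing of the libraries by number is not given by the labels.

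The 13 genes that reversed with 1 library left out ran from -0.17 to 0.16 (*Atp2a2*), -0.21 to 0.88 (*Corin*), -0.087 to 3.16 (*Csrp3*), -0.18 to 0.51 (*Gja5*), -0.42 to 1.69 (*Mybpc3*), -0.11 to 2.60 (*Myh6*), -0.42 to 2.75 (*Myoz2*), -0.44 to 1.08 (*Pln*), -1.17 to 0.27 (*Rbm20*), -0.89 to 0.46 (*Ryr2*), -0.21 to 0.79 (*Tcap*), -0.30 to 1.25 (*Tnnc1*) and -0.13 to 0.88 (*Tnni3*). The cause was not tested. With a mean under 10, 9 of the 38 genes were not tested.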
